A study of Mus musculus with 9 samples.

Results

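The genes described here are 38 mouse genes of growth factor signalling. The VEGF, PDGF and FGF families hold ligands and receptors, and their receptor tyrosine kinases are the targets of the drug TSU68. The rest are other ligands and receptor kinases of vessels and liver cells. All 38 were chosen by name, and each was read from the probe sets (groups of short probes against 1 transcript) that the array's annotation assigns to that gene alone. This gave 77 of the 20380 probe sets with 1 gene, for 38 of the 12393 genes on the array. The VEGF family held 9 genes, the PDGF family 5, the FGF family 5 and the group of other kinases and ligands 19.

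RNA from mouse liver was measured on 9 arrays, 3 in each of 3 groups. Tumour-bearing mice were athymic BALB/c nu/nu males, 6 weeks old when the human colon cancer TK-4 was grafted into the cecal wall, so the liver measured was not the site of implantation. T-Co mice carried the tumour and received vehicle, T-TSU mice carried it and received TSU68 by mouth at 400 mg/kg per day in 2 doses, and NT-Co mice had no tumour and received vehicle. Dosing started 7 days after implantation and lasted 1 week, and the strain, sex and age of NT-Co mice were not stated apart from this. As a model, these mice lack a thymus and mature T cells, and the tumour is human and grafted. Mice without tumour given TSU68 were not analysed here, so an action of the drug in the absence of a tumour could not be read. Arrays are numbered 8, 10 and 11 (NT-Co), 9, 10 and 13 (T-Co), and 2, 12 and 14 (T-TSU), and values are listed in that order. The labels do not say that the arrays of a group came from separate animals, and the p-values therefore refer to the spread between the arrays, which may be technical.

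A receptor tyrosine kinase is a membrane protein that binds a ligand outside the cell, pairs with a second receptor molecule and phosphorylates tyrosines on itself and on adaptor proteins inside the cell. VEGF ligands act through such receptors mainly on endothelial cells, PDGF ligands on stellate cells, fibroblasts and vessel-wall cells, and FGF ligands on many cells, including hepatocytes. TSU68 blocks the kinase activity of receptors of these families and not the transcription of their genes, so the arrays report the RNA of its targets and not the activity it inhibits. In liver, Met, the receptor of hepatocyte growth factor, and the ErbB receptors are known for their part in hepatocyte growth and regeneration.

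Median intensity per array lay between 107 and 119, and 0 pairs of arrays held identical values. Arrays correlated with the others of their group at 0.947 to 0.964 on average. Array T-Co 13 stood apart, at 48.1 on the second principal component against -29.9 to 17.6 for the rest. For the beta-actin controls, whose 3' over 5' signal reflects RNA integrity, NT-Co gave ratios of 2.27 to 3.14, above T-Co (1.88 to 2.10) and T-TSU (1.79 to 2.16). The same ratio of the Gapdh controls overlapped between all groups, at 0.736 to 0.798 in NT-Co, 0.734 to 0.809 for T-Co and 0.707 to 0.851 for T-TSU. All 10 hepatocyte markers on the array passed the filter on dim probe sets, with a summed intensity of 258400 to 291100 in NT-Co, 305600 to 318900 in T-Co and 258000 to 280300 in T-TSU. The part of these array and tissue differences in the results was not tested.

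Differences are given on the scale of log2(intensity + 7.92) with their SE from limma, and a gene is represented by its brightest probe set unless another is named. A gene or probe set was called when its p, adjusted with Benjamini-Hochberg over all 15838 probe sets tested, was under 0.05. By this rule 35 of the 38 genes were bright enough to test. Pgf, a ligand of Flt1, lay at 6.08 to 34.25 over the 9 arrays, Angpt1, the activating ligand of Tek, at 3.79 to 31.7, and Kit, the receptor of stem cell factor, at 5.13 to 77.5. These 3 genes were not tested.

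Met was the only one of the 35 tested genes called in any comparison. It was called in T-TSU against NT-Co, where 3.64% of all genes were called. Its intensity was 284, 306 and 232 (NT-Co), 375, 319 and 365 (T-Co), and 455, 466 and 569 (T-TSU). The groups did not overlap, with NT-Co lowest, T-Co between and T-TSU highest. Met rose in T-TSU against NT-Co by 0.84 ± 0.17 on the log2 scale, or 1.79-fold (95% interval 1.38 to 2.33, n = 3 and 3), with an adjusted p of 0.018 by limma. T-Co exceeded NT-Co by 0.36 ± 0.17 (adjusted p = 0.243) and T-TSU exceeded T-Co by 0.48 ± 0.17 (adjusted p = 0.361), and neither step passed the test. In bulk tissue, a change in the number of cells of a type and a change in RNA per cell cannot be told apart. The call was lost without array NT-Co 8 (adjusted p = 0.0558), NT-Co 11 (0.092), T-TSU 12 (0.05) or T-TSU 14 (0.0915), while the difference stayed between 0.73 and 0.92.

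The ligand gene Pdgfc, whose product binds Pdgfra, was read by a pair of probe sets, of which the dimmer was called. That probe set gave 240.2, 192.5 and 285 (NT-Co), 146, 140.1 and 176 (T-Co), and 81.1, 86.8 and 112 (T-TSU). All 3 groups were separate, in the opposite order to Met. It fell by 1.28 ± 0.23 on the log2 scale in T-TSU against NT-Co (adjusted p = 0.00873, limma), and its differences of -0.60 ± 0.23 for T-Co against NT-Co (adjusted p = 0.148) and -0.68 ± 0.23 for T-TSU against T-Co (adjusted p = 0.326) did not pass. Without array NT-Co 11 the difference was -1.15 and the adjusted p 0.0536. The brighter probe set gave 291, 341 and 191 (NT-Co), 179, 164 and 151 (T-Co), and 241, 162 and 155 (T-TSU). Here T-Co lay below NT-Co without overlap, but T-TSU overlapped with both groups, and the difference from NT-Co was -0.53 ± 0.25 (adjusted p = 0.306). When the probe sets of each gene were averaged, Pdgfc differed from NT-Co by -0.64 in T-Co (adjusted p = 0.041) and by -0.91 in T-TSU (adjusted p = 0.0114), and both passed.

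The 250 bases before the transcription start of Met and Pdgfc are shown because these are the genes with a called probe set. They are RefSeq sequences of build GRCm38.p6 on the plus strand, chr6:17463707-17463956 for Met and chr3:81036166-81036415 for Pdgfc. Capitals mark the E-box CACGTG and the GC box GGGCGG on either strand.
Met: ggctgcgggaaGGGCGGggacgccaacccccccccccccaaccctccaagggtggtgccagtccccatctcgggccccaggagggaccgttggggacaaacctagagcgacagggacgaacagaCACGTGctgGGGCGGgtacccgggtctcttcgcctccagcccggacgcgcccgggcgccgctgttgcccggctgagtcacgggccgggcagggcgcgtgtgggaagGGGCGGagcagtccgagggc
Pdgfc: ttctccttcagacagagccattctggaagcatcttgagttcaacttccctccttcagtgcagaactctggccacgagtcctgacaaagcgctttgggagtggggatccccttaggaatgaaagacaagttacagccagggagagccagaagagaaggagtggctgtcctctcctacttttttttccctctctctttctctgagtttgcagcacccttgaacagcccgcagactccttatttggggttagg
Met had 1 E-box, 3 GC boxes and a GC content of 74%, and Pdgfc had 0 of either and a GC content of 50.8%. The hypoxia core ACGTG, which lies inside the E-box on both strands, gave 2 matches in Met and 0 in Pdgfc. Among 32851 mouse promoter windows of 250 bases, 6.02% held an E-box, 16.6% the hypoxia core and 32.7% a GC box. Of the 38 genes, 30 were matched to 39 such windows, of which 1 held an E-box, 3 the hypoxia core and 28 a GC box. Such a match is a sequence in a window and not a measured binding site.

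The question of the first comparison, T-Co against NT-Co, was how the liver differed when a tumour grew elsewhere. By limma, 0 of the 35 tested genes were called, where 6.36% of all 9223 genes tested were called. At an unadjusted p under 0.05 there were 8, where all genes gave 21.9%. T-Co lay wholly above NT-Co in 7 genes and wholly below it in 6, against 13.0% and 13.7% of all genes. The median difference was 0.34, with 21 of 35 above 0, and over all genes it was -0.02, with 48.4% above 0. The median size of a difference, whatever its sign, was 0.46 for the 35 genes and 0.27 for all genes, and the median SE was also larger, at 0.29 against 0.23.

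By the brightest probe sets, families differed in the sign of their medians in this comparison. The 18 tested genes of the VEGF, PDGF and FGF families had a median of -0.09, with 8 above 0, 2 wholly higher and 6 wholly lower in T-Co. In the VEGF family the median was 0.27 with 5 of 8 genes above 0, in the PDGF family -0.67 with 2 of 5 above 0, and in the FGF family -0.37 with 1 of 5 above 0. With the mean of a gene's tested probe sets, Fgfr2, Fgfr3 and Fgfr4 stood at 0.03, 0.09 and -0.02. The negative FGF median therefore rests on the brightest probe sets. The 17 other kinases and ligands had a median of 0.41, with 13 above 0, 5 wholly higher and 0 wholly lower. Over all genes, 48.4% were above 0, 13.0% wholly higher and 13.7% wholly lower. The median SE was 0.33 for the 17 genes, 0.27 for the 18 and 0.23 for all genes, and 0 genes of either list were called. These are counts and medians of named lists, and the difference between lists was not tested.

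T-TSU against T-Co asks what the drug added in tumour-bearing mice, and it shares the T-Co arrays with the first comparison. Here 0 of 35 genes were called by limma, as were 0.0542% of all genes. An unadjusted p under 0.05 was reached by 5 (11.6% of all genes), and T-TSU lay wholly above T-Co in 3 genes and wholly below in 4, against 7.08% and 7.59%. The median difference was 0.04. The median 95% interval, which is not adjusted for the number of tests, reached 0.63 to either side of a difference. Larger differences also failed the adjusted limma test, such as Flt1 at -1.43 (adjusted p = 0.315) and Tie1 at 1.18 (adjusted p = 0.436). A gene not called here may therefore have changed by more than 0.63.

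In T-TSU against NT-Co, 1 of 35 genes, Met, was called higher and 0 lower, where 3.64% of all genes were called, 2.07% higher and 1.57% lower. Both other comparisons share arrays with this one. T-TSU lay wholly above NT-Co in 7 genes and wholly below it in 2, against 11.5% and 12.6% of all genes. An unadjusted p under 0.05 was reached by 3 genes, where 16.5% of all genes reached it. Of the 7 wholly higher, 5 were among the 17 other kinases and ligands, whose median was 0.55, while the 18 genes of the target families had a median of -0.09. The F test over the 3 groups also called 1 gene, Met (adjusted p = 0.0334), where 5.63% of all genes were called. That call was lost without any 1 array of NT-Co or of T-TSU and kept without any 1 of T-Co. Among the 59 probe sets tested, T-TSU against NT-Co called those of Met and the dimmer one of Pdgfc, where 3.85% of all probe sets were called. The F test called the same 2, Pdgfc with an adjusted p of 0.0164, where 5.70% of all probe sets were called.

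**Figure D1:**
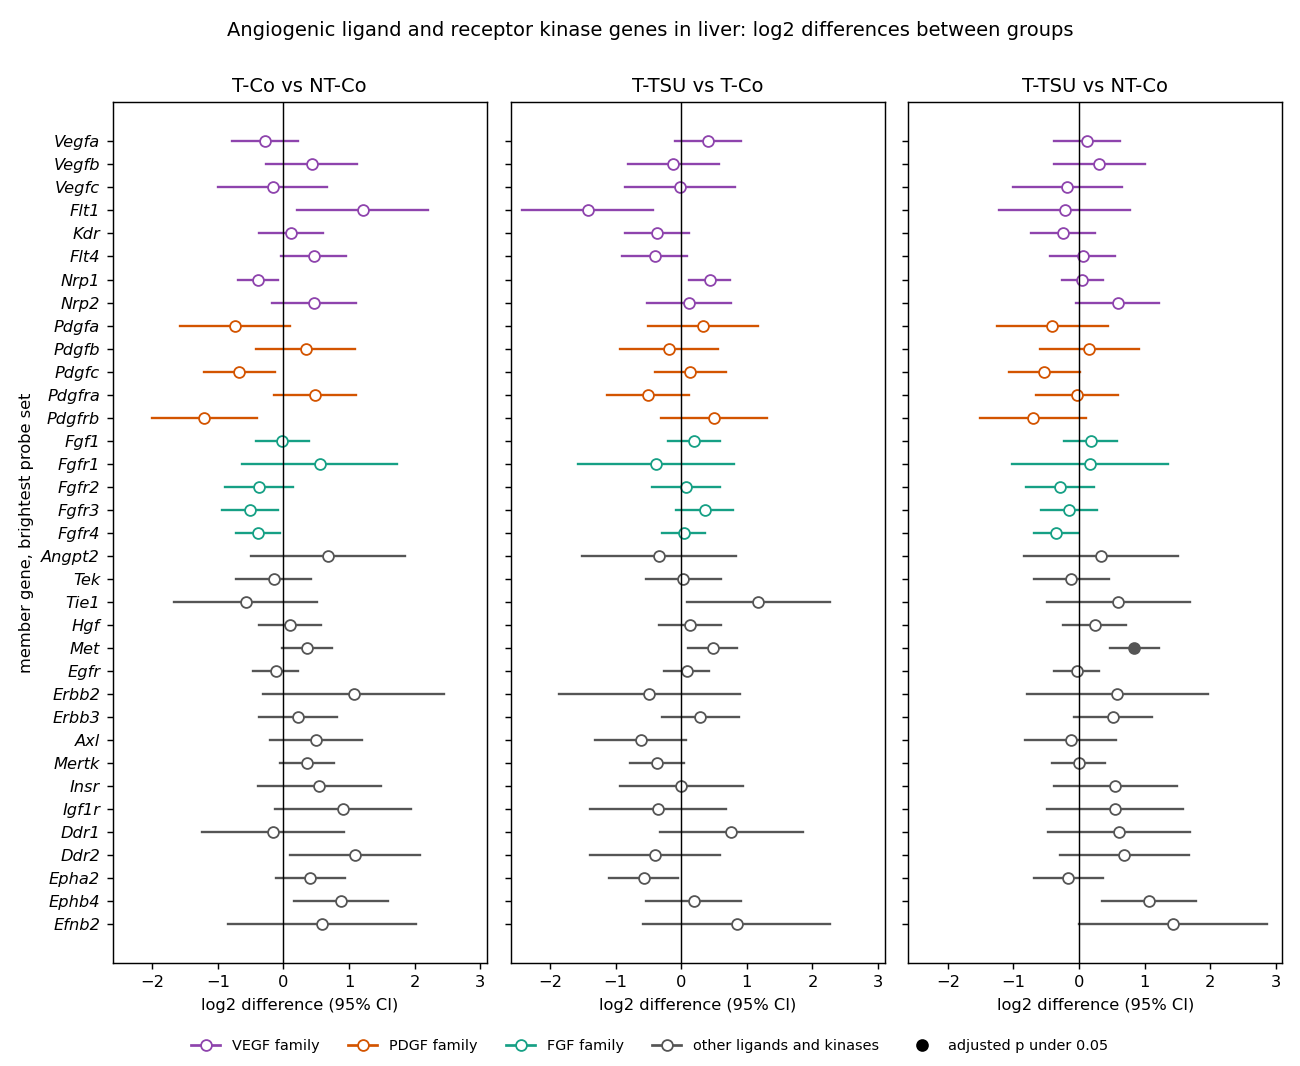
Log2 differences (x axis, log2(intensity + 7.92) scale) of the 35 tested genes (y axis, grouped by family) in the 3 comparisons, 1 per panel, with 95% intervals from limma and filled points for an adjusted p under 0.05. Met in T-TSU against NT-Co, at 0.84, is the only filled point, and Pdgfrb in T-Co against NT-Co lies lowest in its panel, at -1.20.

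Among the VEGF ligands, Vegfa, the main growth factor of vessel endothelium, gave 911, 516 and 885 (NT-Co), 517, 718 and 620.2 (T-Co), and 979, 665 and 828 (T-TSU). The groups overlapped, and array NT-Co 10 was as low as the lowest T-Co array. The differences were -0.28 ± 0.23 for T-Co against NT-Co (adjusted p = 0.531) and 0.40 ± 0.23 for T-TSU against T-Co (adjusted p = 0.584), and its dimmer probe set had the same signs, at -0.23 and 0.37. Vegfb, a ligand of Flt1, lay between 84.1 and 183 over the arrays and differed by 0.43 and -0.12. Vegfc, the lymphatic growth factor that binds Flt4, lay between 31.6 and 74.7 and differed by -0.16 and -0.01. None of these 3 ligands separated the groups.

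Flt1, a VEGF receptor that also acts as a decoy for its ligands, was the gene with the smallest p in T-TSU against T-Co. It read 52.8, 96.7 and 45.0 (NT-Co), 116, 164 and 186 (T-Co), and 21.6, 57.5 and 102 (T-TSU). All 3 T-Co arrays were above every array of the other groups, which overlapped with each other. T-Co exceeded NT-Co by 1.21 ± 0.46 (95% interval 0.21 to 2.21, unadjusted p = 0.0219, adjusted p = 0.145), and T-TSU lay below T-Co by a log2 difference of -1.43 ± 0.46 (-2.43 to -0.43, unadjusted p = 0.00896, adjusted p = 0.315). Neither passed after adjustment. Without the array T-Co 13 the values were 1.07 and -1.29, and without T-TSU 2 the second was -0.92. The other 2 tested probe sets of Flt1 did not share this pattern, with -0.17 and -0.76 for T-Co against NT-Co and -0.40 and 0.42 for T-TSU against T-Co.

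Kdr, the main signalling receptor for VEGF on endothelial cells, gave 245, 143 and 188 (NT-Co), 188, 193 and 232 (T-Co), and 169, 158 and 143 (T-TSU). T-TSU lay wholly below T-Co, by a difference of -0.37 ± 0.22 (adjusted p = 0.616), and NT-Co spanned both. Flt4, the receptor of lymphatic and liver sinusoidal endothelium, gave 263, 323 and 314 (NT-Co), 322, 409 and 537.5 (T-Co), and 247, 409 and 298 (T-TSU). Array T-Co 13 was highest and the groups overlapped. The difference was 0.46 ± 0.23 for T-Co against NT-Co (adjusted p = 0.265) and -0.40 ± 0.23 for T-TSU against T-Co (adjusted p = 0.583), and without T-Co 13 these were 0.27 and -0.22.

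Nrp1, a co-receptor that presents VEGF to Kdr, showed the reverse order of Flt1 over the groups. Its intensity was 1882, 2154 and 2165 (NT-Co), 1549, 1781 and 1424 (T-Co), and 2374, 1821 and 2247 (T-TSU). Every T-Co array was below every array of NT-Co and T-TSU. T-Co differed from NT-Co by -0.38 ± 0.14 (unadjusted p = 0.0187, adjusted p = 0.134) and T-TSU from T-Co by 0.43 ± 0.14 (unadjusted p = 0.0099, adjusted p = 0.32). All 3 probe sets of Nrp1 had T-Co wholly below NT-Co, the other 2 at -0.36 and -0.53, and both lay above 0 for T-TSU against T-Co, at 0.16 and 0.37, where their groups overlapped. Without T-Co 13 the brightest probe set gave -0.31 and 0.36. Nrp2, the neuropilin of lymphatic endothelium, gave 68.4, 65.1 and 72.6 (NT-Co), 85.2, 134 and 81.7 (T-Co), and 123, 119.5 and 83.5 (T-TSU). NT-Co lay wholly below both tumour-bearing groups, by 0.47 ± 0.29 for T-Co (adjusted p = 0.386) and 0.59 ± 0.29 for T-TSU (adjusted p = 0.344).

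The summed intensity of 17 endothelial markers, all on the array and all above the filter, was 4095 to 5592 in NT-Co, 5160 to 8282 in T-Co and 3786 to 5489 in T-TSU. In T-Co against NT-Co, 17 of 17 markers were above 0 (48.4% of all genes), and 2, Pecam1 and Bmp2, were called higher (3.59% of all genes). In T-TSU against T-Co 15 of 17 were below 0, with 0 called by limma (0.0542% of all genes) and 4 at an unadjusted p under 0.05 (11.6%). Array T-Co 13 gave the highest sum, and without it T-Co lay at 5160 to 5640. Nrp1, with T-Co lowest, had the opposite sign to these markers, and Kdr differed by 0.11 ± 0.22 in T-Co against NT-Co. Tie1 and Tek were also below 0 there, at -0.58 and -0.15, while Flt1 and Flt4 were above 0. Of 14 tested endothelial pathway genes, 9 were above 0 and 5 below, and S1pr1 was called lower (-0.73, adjusted p = 0.0432 by limma). The part of the endothelial markers in the values of Flt1, Kdr, Flt4 and Nrp1 was not tested.

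**Figure D2:**
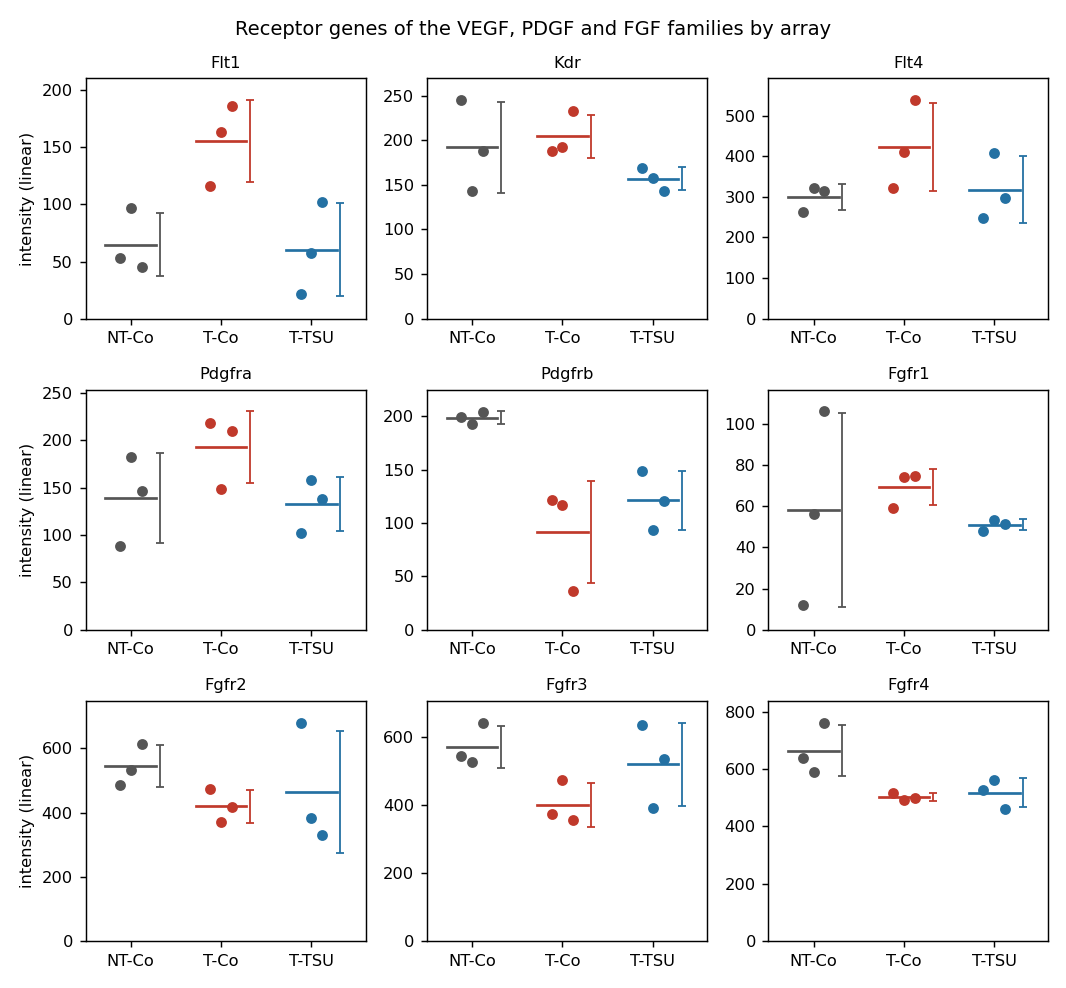
Intensity (y axis, deposited linear units) of the 9 receptors of the VEGF, PDGF and FGF families by group (x axis), 1 panel each, with a point per array, a line at the mean and a bar for the SD (n = 3). The T-Co points of Flt1 (116 to 186) lie above those of both other groups, and those of Pdgfrb (36.6 to 122) lie below NT-Co.

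PDGF ligands were low or variable on these arrays. Pdgfa, a ligand of Pdgfra, gave 241, 122 and 226 (NT-Co), 116, 164 and 69.3 (T-Co), and 233, 91.3 and 129 (T-TSU), with overlap of all groups and a difference of -0.73 ± 0.39 for T-Co against NT-Co (adjusted p = 0.293, and -0.43 without T-Co 13). Its dimmer probe set gave -0.63 ± 0.30 for the same comparison (adjusted p = 0.24) and -0.88 ± 0.30 for T-TSU against NT-Co, where T-TSU lay wholly below NT-Co (adjusted p = 0.141). Pdgfb, the ligand that recruits pericytes through Pdgfrb, gave 52.8, 47.8 and 52.8 (NT-Co), 62.6, 92.0 and 51.2 (T-Co), and 52.8, 63.6 and 57.3 (T-TSU). Only the array T-Co 10 was clearly higher, and the T-Co difference was 0.34 ± 0.35 (adjusted p = 0.624).

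Pdgfrb, the receptor that marks stellate cells and pericytes, had the smallest p of all 35 genes in T-Co against NT-Co. It gave 199, 193 and 204 (NT-Co), 122, 117 and 36.6 (T-Co), and 149, 93.4 and 121 (T-TSU). Both tumour-bearing groups were wholly below NT-Co, and they overlapped with each other. The T-Co value was 0.434 of NT-Co (95% interval 0.249 to 0.759), a log2 difference of -1.20 ± 0.37 with an unadjusted p of 0.00681 and an adjusted p of 0.075, so it did not pass. Array T-Co 13 set part of this size, since without it the difference was -0.70 (adjusted p = 0.159). T-TSU differed from T-Co by 0.50 ± 0.37 (adjusted p = 0.683) with that array and by -0.003 without it, and from NT-Co by -0.70 ± 0.37 (adjusted p = 0.382).

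Pdgfra, the receptor shared by Pdgfa and Pdgfc, went the other way. It gave 88.3, 182 and 146 (NT-Co), 218.5, 149 and 209.7 (T-Co), and 102, 158 and 138 (T-TSU), and the groups overlapped. The differences were 0.49 ± 0.29 for T-Co against NT-Co (adjusted p = 0.357, and 0.21 without NT-Co 8) and -0.51 ± 0.29 for T-TSU against T-Co (adjusted p = 0.578).

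Stellate cell and fibroblast markers, of which 13 of 14 were on the array, summed to 9990 to 11170 in NT-Co, 8841 to 9126 in T-Co and 9647 to 11370 in T-TSU. T-Co lay below both groups without overlap, Dcn alone made up 40.7% of the sum, and Col1a1 and Hand2 were under the filter. Of the 11 tested markers, 8 were below 0 in T-Co against NT-Co, with 2, Col3a1 and Lum, called lower (2.78% of all genes). In T-TSU against T-Co 9 of the 11 were above 0, with 0 called by limma and 4 at an unadjusted p under 0.05 (11.6% of all genes). In T-TSU the markers' sum overlapped with NT-Co, whereas Pdgfrb did not. Pdgfra and the stellate cell receptor Ddr2 were above 0 in T-Co against NT-Co, at 0.49 and 1.10, opposite in sign to most of these markers. The part of these markers in the Pdgfrb values was not tested.

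In the FGF family the ligand Fgf1, which binds all FGF receptors, gave 1736, 1368 and 1593 (NT-Co), 1608, 1280.0 and 1784 (T-Co), and 1363, 2146 and 1880.0 (T-TSU). The groups overlapped, and the difference was -0.01 ± 0.18 for T-Co against NT-Co (adjusted p = 0.978). For T-TSU against T-Co it was 0.19 ± 0.18 (adjusted p = 0.765) by the brighter probe set and 0.39 ± 0.16 (adjusted p = 0.399) by the dimmer one.

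The brightest probe sets of 3 FGF receptors placed T-Co wholly below NT-Co, as did those of 13.7% of all genes, and none of the 3 passed. Fgfr4, the main FGF receptor of hepatocytes and the one that receives the bile acid signal from the gut, gave 640.0, 591 and 763 (NT-Co), 517, 492 and 500.4 (T-Co), and 528, 563 and 462 (T-TSU). Both tumour-bearing groups lay wholly below NT-Co, T-Co by -0.39 ± 0.15 (unadjusted p = 0.0261, adjusted p = 0.161) and T-TSU by -0.35 ± 0.15 (unadjusted p = 0.04, adjusted p = 0.267). The step from T-Co to T-TSU was 0.04 ± 0.15, with a 95% interval from -0.30 to 0.37. The other 3 tested probe sets of Fgfr4 gave 0.29, 0.10 and -0.09 for T-Co against NT-Co, so they did not share the difference. The dimmest of them put T-TSU wholly below both groups, by -0.69 ± 0.28 against T-Co (95% interval -1.29 to -0.09, adjusted p = 0.406) and -0.79 ± 0.28 against NT-Co (adjusted p = 0.157), where the brightest gave 0.04 and -0.35.

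Fgfr3, another FGF receptor with a kinase domain, gave 542, 526 and 641 (NT-Co), 372, 472 and 354 (T-Co), and 634, 390.1 and 533 (T-TSU). T-Co was wholly below NT-Co, by -0.51 ± 0.20 (unadjusted p = 0.0243, adjusted p = 0.154), and T-TSU overlapped with both. Its dimmer probe set had the opposite sign, at 0.69 ± 0.37 (adjusted p = 0.301) in T-Co, and in T-TSU it lay above NT-Co with a 95% interval of 0.19 to 1.81 (adjusted p = 0.181). Fgfr2, whose splice forms differ between epithelium and mesenchyme, gave 486, 534 and 614.5 (NT-Co), 472.5, 371 and 416 (T-Co), and 680.5, 383 and 329 (T-TSU), with T-Co wholly below NT-Co by -0.37 ± 0.24 (adjusted p = 0.407). Its dimmer probe set placed T-Co wholly above NT-Co, by 0.43 ± 0.21 (adjusted p = 0.262), so the direction for Fgfr2 and for Fgfr3 depends on the probe set.

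Fgfr1, the FGF receptor typical of mesenchymal cells, was dim. It gave 11.9, 56.05 and 106 (NT-Co), 59.2, 74.0 and 74.5 (T-Co), and 48.0, 53.3 and 51.5 (T-TSU). NT-Co spanned the whole range, and T-TSU lay wholly below T-Co, by -0.39 ± 0.54 (adjusted p = 0.854).

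Hgf, the ligand of Met made by stellate and endothelial cells, gave 115, 104 and 114 (NT-Co), 129.7, 120.5 and 109 (T-Co), and 135, 120.0 and 142 (T-TSU). T-TSU was wholly above NT-Co, but by only 0.24 ± 0.22 (adjusted p = 0.669), and T-Co overlapped with both. So the receptor of this pair was called and the ligand was not, and the difference between their changes was not tested.

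Ephb4, the ephrin receptor of venous endothelium, had the next smallest p after Met in T-TSU against NT-Co. It gave 162, 58.9 and 149.6 (NT-Co), 172, 286 and 200.4 (T-Co), and 229, 281 and 231 (T-TSU). NT-Co lay wholly below both tumour-bearing groups, which overlapped. T-Co exceeded it by 0.87 ± 0.33 (unadjusted p = 0.0212, adjusted p = 0.143) and T-TSU by 1.06 ± 0.33, or 2.09-fold (unadjusted p = 0.00727, adjusted p = 0.106). Without NT-Co 10, the lowest array, these were 0.44 and 0.63. Efnb2, the ligand of Ephb4 on arterial endothelium, was dim and spread widely, at 58.6, 14.8 and 7.44 (NT-Co), 75.0, 38.4 and 12.55 (T-Co), and 49.8, 75.2 and 86.7 (T-TSU). Its difference of 1.43 ± 0.66 for T-TSU against NT-Co (unadjusted p = 0.0503, adjusted p = 0.297) came with overlapping groups.

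Epha2, an ephrin receptor of epithelial cells, gave 213, 280.2 and 183 (NT-Co), 255, 279 and 368 (T-Co), and 219, 239 and 146 (T-TSU). T-TSU lay wholly below T-Co, by -0.57 ± 0.24 (unadjusted p = 0.0354, adjusted p = 0.429), which was -0.42 without T-Co 13 and -0.36 without T-TSU 14. Tie1, an orphan receptor of endothelial cells, was the reverse, at 41.7, 57.9 and 39.1 (NT-Co), 32.4, 9.49 and 58.0 (T-Co), and 62.0, 88.85 and 71.0 (T-TSU). All T-TSU arrays were above all others, by 1.18 ± 0.50 over T-Co (unadjusted p = 0.0372, adjusted p = 0.436) and 0.60 ± 0.50 over NT-Co (adjusted p = 0.63). Without T-Co 10, the array at 9.49, the excess over T-Co was 0.65. Tek, the angiopoietin receptor that pairs with Tie1, differed by -0.15 ± 0.27 and 0.03 ± 0.27 in T-Co against NT-Co and T-TSU against T-Co, and Angpt2, its mostly antagonist ligand, by 0.67 ± 0.54 and -0.35 ± 0.54. Groups of Tek and of Angpt2 overlapped in both comparisons.

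Axl and Mertk, receptors with which macrophages and other cells take up dying cells, had T-Co highest on average. Mertk gave 365, 336 and 353 (NT-Co), 451, 548 and 377 (T-Co), and 420.5, 347 and 292 (T-TSU). T-Co was wholly above NT-Co, by 0.36 ± 0.19 (adjusted p = 0.288), and T-TSU differed from T-Co by -0.37 ± 0.19 (adjusted p = 0.528) with overlap. Axl gave 95.3, 186 and 100.5 (NT-Co), 146, 191 and 190.5 (T-Co), and 72.3, 155 and 119.8 (T-TSU), with differences of 0.50 ± 0.32 and -0.62 ± 0.32 (adjusted p = 0.405 and 0.533). The summed intensity of 11 Kupffer cell and macrophage markers, all above the filter, was 8497 to 11680 in NT-Co, 11200 to 17100 in T-Co and 5075 to 11080 in T-TSU. Of these 11, 10 were above 0 in T-Co against NT-Co, with 1, Cd163, called higher (3.59% of all genes). All 11 were below 0 in T-TSU against T-Co, with 0 called by limma and 9 at an unadjusted p under 0.05 (11.6% of all genes). Their part in the Axl and Mertk values was not tested.

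**Figure D3:**
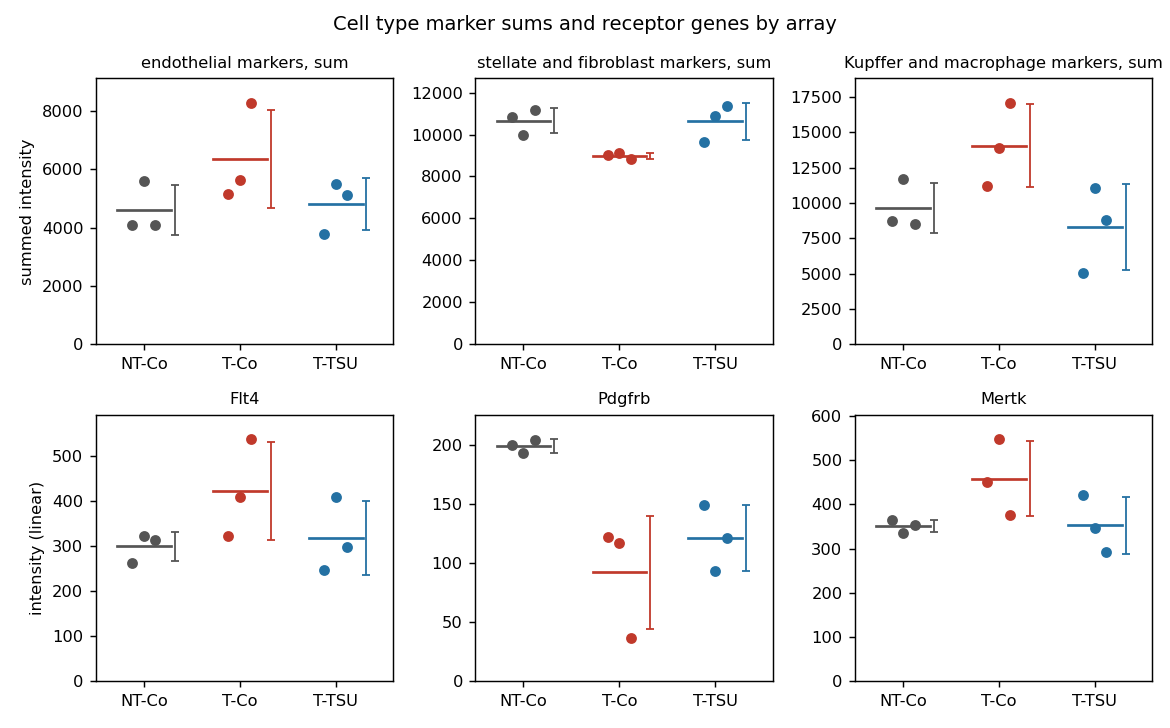
Summed intensity of cell type markers and intensity of a receptor of the same cells on each array, by group, for endothelial cells and Flt4, stellate cells and Pdgfrb, and Kupffer cells and Mertk. Some receptors not drawn had the opposite sign in T-Co against NT-Co, such as Nrp1 (-0.38) for endothelial cells and Ddr2 (1.10) for stellate cells. The stellate sum is lowest in T-Co (8841 to 9126), the endothelial and Kupffer sums reach their highest values there (8282 and 17100), and array T-Co 13 holds both of those and the lowest Pdgfrb value, 36.6.

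ErbB receptors, which bind EGF-like ligands and neuregulins, had no called member. Egfr, abundant in hepatocytes, gave 3540.0, 5031 and 3891 (NT-Co), 3573, 4162 and 3629 (T-Co), and 4891, 3547 and 3686 (T-TSU), and its differences were -0.12 ± 0.16 and 0.08 ± 0.16 with overlapping groups. For Erbb3, the neuregulin receptor that signals through a partner kinase, T-TSU was wholly above NT-Co by 0.52 ± 0.27 (adjusted p = 0.377). Erbb2, the partner without a ligand of its own, was dim, at 7.93 to 80.8, and differed by 1.07 ± 0.63 in T-Co (adjusted p = 0.357), or 0.54 without NT-Co 10.

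The receptors of insulin and of insulin-like growth factor and the collagen receptor Ddr2 were dim. Igf1r gave 47.5, 26.0 and 31.3 (NT-Co), 72.4, 71.3 and 68.6 (T-Co), and 106, 24.0 and 56.3 (T-TSU). T-Co was wholly above NT-Co, by 0.91 ± 0.48 (adjusted p = 0.29). The other Igf1r probe set, under the filter and not tested, averaged 49.97 in NT-Co and 32.4 in T-Co, with overlap. Insr, the insulin receptor, differed by 0.55 ± 0.43 with overlap (adjusted p = 0.512). Ddr2, a collagen receptor of stellate cells, gave 17.4, 61.2 and 65.8 (NT-Co), 77.55, 128 and 100.3 (T-Co), and 54.8, 115 and 62.5 (T-TSU), with T-Co wholly above NT-Co by 1.10 ± 0.45 (unadjusted p = 0.0327, adjusted p = 0.181). Without NT-Co 8, the array at 17.4, this was 0.60. Ddr1, its epithelial relative, spread from 31.4 to 181 within T-Co alone and differed by -0.16 ± 0.50.

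Of the 38 genes, 23 had several probe sets on the array and 16 had several that were tested. All tested probe sets of a gene had the same sign in 10 of the 16 genes for T-Co against NT-Co, in 6 for T-TSU against T-Co and in 8 for T-TSU against NT-Co, and 3 genes (Vegfa, Fgf1 and Hgf) had the same sign throughout. In 5 genes (Vegfa, Flt4, Nrp1, Pdgfa and Hgf) every pair of probe sets correlated over 0.5 across the 9 arrays. In 7 genes (Flt1, Pdgfb, Fgfr2, Fgfr3, Fgfr4, Egfr and Ddr1) at least 1 pair correlated below 0. The pairs of Nrp1 lay at 0.59 to 0.88, the pair of Pdgfc at 0.32 and those of Flt1 at -0.38 to 0.31, each over 9 arrays that share their groups and their scaling. Beside the genes described above, signs also parted for Pdgfa in T-TSU against T-Co (0.33 and -0.25) and for Pdgfb there (-0.19 and 0.67). For Erbb3 they parted in the same comparison (0.29 and -0.61), and for Egfr in T-Co against NT-Co, where the brightest probe set gave -0.12 and the other 4 gave 0.09 to 0.51. The probe sets of Flt4 parted in T-TSU against NT-Co (0.06 and -0.21), as did those of Nrp1 (0.05, -0.20 and -0.16). Those of Insr parted in T-TSU against T-Co (0.002 and -0.49) and against NT-Co (0.55 and -0.005). For Ddr1 and Egfr they parted in all 3 comparisons. Ddr1 gave -0.16, 0.17 and -0.22 in T-Co against NT-Co and 0.77, -0.30 and 0.80 in T-TSU against T-Co. Met had 1 tested probe set, so its rise had no such check.

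**Figure D4:**
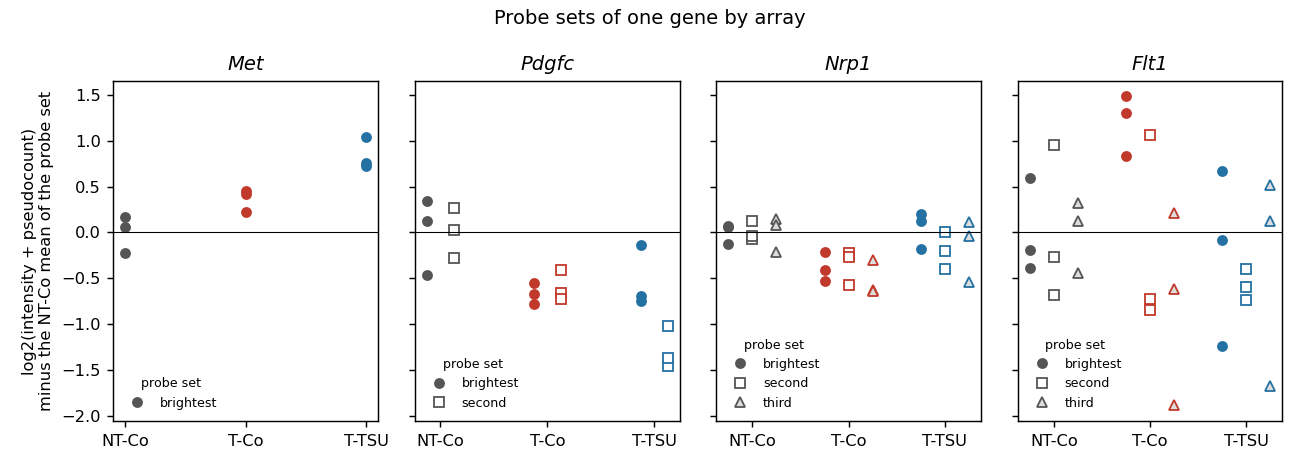
Log2 value of each tested probe set of Met, Pdgfc, Nrp1 and Flt1 on the 9 arrays (x axis, by group), minus that probe set's mean in NT-Co (y axis). The 3 probe sets of Nrp1 dip together in T-Co, the pair of Pdgfc part in T-TSU, where they average -0.53 and -1.28, and of the 3 of Flt1 only the brightest is raised in T-Co.

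Other genes of the same pathways, none of them among the 38, were taken from 5 lists of further ligands, co-receptors and modulators, signal and feedback genes, hypoxia genes, and endothelial pathway genes. Of 96 such genes on the array, 75 were tested. In T-Co against NT-Co 7 were called higher and 4 lower, where 3.59% and 2.78% of all genes were. In T-TSU against T-Co 0 were called by limma (0.0542% of all genes) and 13 had an unadjusted p under 0.05 (11.6% of all genes). In T-TSU against NT-Co 3 were called higher and 3 lower, where 2.07% and 1.57% of all genes were. Their median differences were 0.16, -0.10 and 0.05 in the 3 comparisons. The lists were chosen with earlier results of these data known, so these counts cannot serve as a test of the pathways.

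Of 17 further ligands, Nrg4, an ErbB ligand that signals to hepatocytes, was the only one called. It gave 111, 39.55 and 76.9 (NT-Co), 468, 323 and 842 (T-Co), and 304, 524.5 and 523 (T-TSU). All 6 arrays of tumour-bearing mice were above all of NT-Co. Nrg4 rose by 2.71 ± 0.38 in T-Co (adjusted p = 0.00192) and by 2.51 ± 0.38 in T-TSU (adjusted p = 0.00367), both against NT-Co and both called without any 1 array, and T-TSU differed from T-Co by -0.20 ± 0.38.

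Of 14 co-receptors and modulators, 12 were above 0 in T-Co against NT-Co and 3 were called higher (3.59% of all genes). Klb, the co-receptor through which Fgfr4 binds endocrine FGFs, gave 487, 496.5 and 568 (NT-Co), 1103, 1152 and 909.8 (T-Co), and 734, 803 and 624 (T-TSU). The groups were all separate, with T-TSU between the others. Klb rose by 1.01 ± 0.16 in T-Co (adjusted p = 0.00328) and kept its call without any 1 array, while T-TSU against T-Co gave -0.55 ± 0.16 (adjusted p = 0.244). Sdc4, a heparan sulfate co-receptor of FGF, rose by 0.94 ± 0.18 (adjusted p = 0.00956), a call lost when variances were moderated without the intensity trend (0.0537). Ptprj, a phosphatase that acts on VEGF and PDGF receptors, rose by 1.07 ± 0.23 (adjusted p = 0.0193), which was lost without NT-Co 8 (0.0804), NT-Co 10 (0.0614) or T-Co 13 (0.0664).

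Of 20 signal and feedback genes, 2 were called higher and 2 lower in T-Co against NT-Co, where 3.59% and 2.78% of all genes were. Irs1, an adaptor of the insulin receptor, gave 1111, 1032 and 1137 (NT-Co), 649.9, 499 and 406 (T-Co), and 589, 616 and 492 (T-TSU). It fell by 1.09 ± 0.18 in T-Co (adjusted p = 0.00416), a call kept without any 1 array, and by 0.95 ± 0.18 in T-TSU (adjusted p = 0.0116), which was lost without NT-Co 8 (0.0512), NT-Co 11 (0.0563) or T-TSU 14 (0.0604). Both groups lay wholly below NT-Co. Pik3r1, the regulatory subunit of PI3 kinase, gave 343, 288 and 441 (NT-Co), 885, 619 and 624 (T-Co), and 843, 1009 and 846 (T-TSU). It rose by 0.97 ± 0.20 in T-Co (adjusted p = 0.0124, and 0.0516 without NT-Co 8) and by 1.33 ± 0.20 in T-TSU (adjusted p = 0.0032, kept without any 1 array). Both groups lay wholly above NT-Co.

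The other pair was less stable. Irs2, the second insulin receptor adaptor, rose by 2.02 ± 0.48 in T-Co (adjusted p = 0.0261) from a dim level of 9.42 to 55.5 in NT-Co to 99.0 to 199.7, and lost its call without NT-Co 11 (0.0584), T-Co 10 (0.0778) or T-Co 13 (0.0813). Grb10, an inhibitory adaptor of insulin signalling, fell by 0.76 ± 0.21 in T-Co (adjusted p = 0.0484), and the call was lost without any 1 of the 9 arrays (0.0568 to 0.141) and with the mean of its probe sets, where the difference was -0.11.

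Among 10 hypoxia genes, Bnip3, a mitochondrial protein induced in low oxygen and fasting, gave 3877, 4201 and 3465 (NT-Co), 7055, 8281 and 9359 (T-Co), and 6507, 8398 and 8043 (T-TSU). It rose by 1.09 ± 0.14 in T-Co (adjusted p = 0.0012) and by 0.99 ± 0.14 in T-TSU (adjusted p = 0.00249), each called without any 1 array, and the 6 arrays of tumour-bearing mice were above all of NT-Co. Egln3, a prolyl hydroxylase that is itself a hypoxia target, went the other way and fell by 1.11 ± 0.28 in T-Co (adjusted p = 0.0361). That call was lost without NT-Co 8 (0.105), NT-Co 11 (0.147), T-Co 10 (0.0972) or T-Co 13 (0.0964). Pdk1, a kinase that restrains pyruvate oxidation, had the second smallest p of the 75 genes in T-TSU against T-Co, at 0.84 ± 0.20 (adjusted p = 0.175), and did not pass.

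Of 14 endothelial pathway genes, S1pr1, a sphingolipid receptor that keeps vessels stable, gave 824, 699.6 and 711 (NT-Co), 502, 319.6 and 543 (T-Co), and 439, 419.6 and 437 (T-TSU). It fell by 0.73 ± 0.19 in T-Co (adjusted p = 0.0432) and by 0.77 ± 0.19 in T-TSU (adjusted p = 0.0477), and both groups were wholly below NT-Co. The first call remained only without T-Co 9 or T-Co 13 and reached 0.153 without NT-Co 8, and the second remained only without T-Co 10 or T-Co 13 and reached 0.173 without NT-Co 8. Mmp14, a membrane protease of invading vessels, gave 449, 348 and 370.2 (NT-Co), 441, 389 and 509.5 (T-Co), and 196, 278 and 196 (T-TSU), so T-TSU lay wholly below both groups. It fell by 0.79 ± 0.19 in T-TSU against NT-Co (adjusted p = 0.0433), a call that remained only without T-Co 10, T-Co 13 or T-TSU 12 and reached 0.169 without NT-Co 8. Its difference of -0.99 ± 0.19 for T-TSU against T-Co had the smallest p of the 75 genes in that comparison and an adjusted p of 0.12. With the mean of a gene's probe sets the T-Co calls of Ptprj (adjusted p = 0.106), Pik3r1 (0.0767) and Egln3 (0.0607) and the T-TSU call of Mmp14 (0.231) were also lost. Under that setting Egln3 gained a call in T-TSU against NT-Co, at -1.41 (adjusted p = 0.00961) where the brightest probe set gave -0.68, and for T-TSU against T-Co it stood at -0.56 in place of 0.43. Without T-TSU 12 the T-TSU against T-Co difference of Mmp14 was -1.15 and passed (adjusted p = 0.0383). In T-TSU against NT-Co, Sdc4 (adjusted p = 0.0501) and Ptprj (0.0613) passed under some other settings, at the lowest with 0.03 and 0.0418 when only those 2 groups were fitted. With no intensity trend the calls of Ptprj (0.0511), Irs2 (0.0643), Egln3 (0.089) and S1pr1 (0.0911) in T-Co were lost, as were those of Irs1 (0.0515), Mmp14 (0.0858) and S1pr1 (0.108) in T-TSU. With no filter Grb10 (0.102) and S1pr1 (0.0521) in T-Co and S1pr1 (0.056) and Mmp14 (0.059) in T-TSU lost theirs. With only the 2 groups fitted, Irs2 (0.058), Grb10 (0.0792) and S1pr1 (0.0787) in T-Co did. Centring arrays on their medians took the T-TSU call of S1pr1 (0.051), and robust moderation that of Grb10 in T-Co (0.0524).

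**Figure D5:**
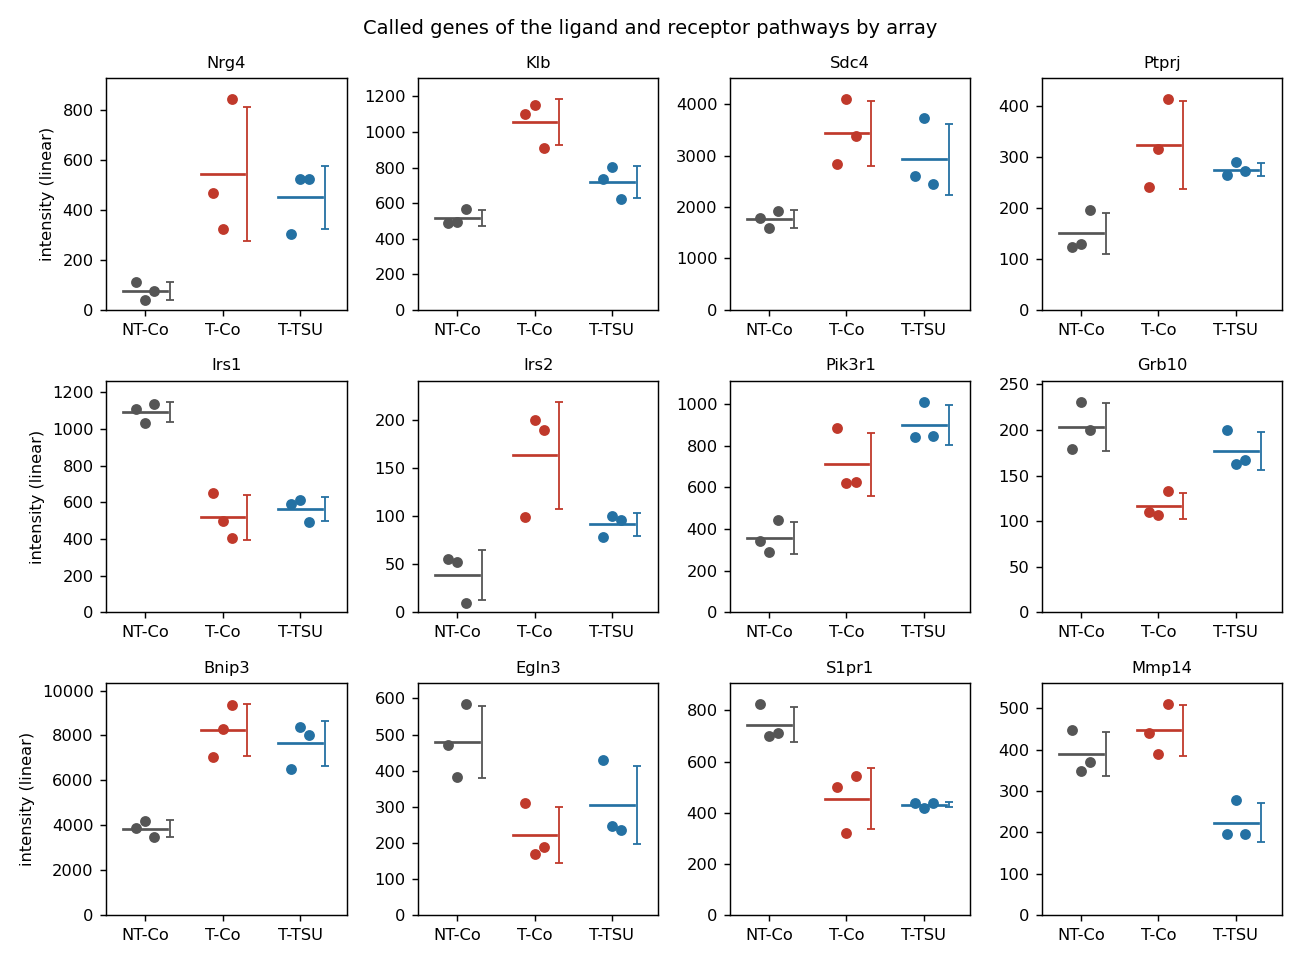
Intensity (y axis, deposited linear units) of the 12 called pathway genes by group (x axis), with a point per array, a line at the mean and a bar for the SD (n = 3). Nrg4 and Bnip3 are higher in both tumour-bearing groups, Irs1 and S1pr1 are lower in both, and Klb is highest in T-Co (909.8 to 1152).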

How the data were processed

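Liver RNA of 9 samples was hybridised to mouse 3' expression arrays. Per the labels' protocols, labelled cRNA was made from 5 µg of total RNA. The deposited values are linear intensities, 1 per probe set and sample, and every array had a mean of 500.3 after 2% of values were removed at each end, so the authors' table was already scaled. Which software made it is not given in the sources.

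Intensities were analysed as log2(intensity + 7.92), the 10th percentile of all values, which understates changes of dim genes. No further normalization was applied. Of 22690 probe sets, 64 controls were left out. A further 6788 were not tested, since the mean of their log2 values was under the 30th percentile (about 36.2 converted back to intensity). limma 3.58.1 (R 4.3.3) fitted 3 group means over the 9 arrays together, with 6 residual degrees of freedom and variances moderated along the intensity trend. P-values were two-sided and adjusted over all 15838 probe sets. The number of arrays limits the precision. All 38 genes were named by rule, with values per array for called genes, target receptors, main ligands and the 4 smallest p-values in each comparison. Of the pathway lists, called genes and up to 4 with the smallest p were open to naming. The genes and lists were chosen with earlier results of these data known. The steps were tested on simulated data. Lists of cholangiocyte, neutrophil, lymphocyte, erythroid and acinar markers were also summed. Neutrophil markers summed to 680 to 1038 in NT-Co, 942 to 2329 in T-Co and 605 to 989 in T-TSU. Erythroid markers summed to 2102 to 2473, 397 to 1158 and 1218 to 2273 in the same order, but Alas2 made up 92.1% of this, and without it the groups overlapped (105 to 177, 121 to 176 and 76 to 153). Acinar markers summed to 2218 to 2517, 798 to 1091 and 1153 to 1863, with Cela1 at 83.9%, and without it T-Co lay above NT-Co (117 to 281, 305 to 336 and 175 to 361). Cholangiocyte markers (194 to 340.4) and lymphocyte markers (386 to 700.5) overlapped between all groups.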

Additional observations from a re-analysis of the deposited data

How the results depend on the processing

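No paired analysis was possible because the groups compared share at most 1 replicate number. Settings were changed 1 at a time. For T-Co against NT-Co, no intensity trend gave 473 called probe sets in place of 1036, and leaving out 1 array gave 445 to 1016, lowest without NT-Co 11 (445) and NT-Co 8 (470). For T-TSU against NT-Co, 609 became 265 without the trend and 287 to 793 with 1 array left out, lowest without T-TSU 14 (287), NT-Co 11 (297), T-TSU 12 (317) and NT-Co 8 (324). For T-TSU against T-Co, 8 became 25 with a pseudocount at the 25th percentile, 14 with robust moderation, 1 after quantile normalization, and 0 with no filter, with arrays centred, with no trend or with the 2 groups alone. Leaving out 1 array gave 0 to 58, with 58 without T-TSU 12, 32 without T-Co 10, 3 without T-Co 13, and 0 without NT-Co 8, NT-Co 11, T-TSU 2 or T-TSU 14.

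Of the 38 genes, 0 were called in T-TSU against T-Co under every setting run. With the mean of a gene's probe sets, T-Co against NT-Co called 1 (Pdgfc), T-TSU against NT-Co 2 (Met and Pdgfc) and the F test 2. With 1 array left out, T-TSU against NT-Co called 0 to 1 and the F test 0 to 1, and the F test called 0 with arrays centred or with no trend. Differences of single genes were counted over the tested genes of the 38, the called pathway genes and the second probe set of Pdgfc together. Of these, 0 changed sign while called, 70 lost a call, 16 gained one, 54 moved further without a call, and 2551 did none of these. Among the 38 genes, only Met and the second probe set of Pdgfc lost a call, and only Pdgfc gained one. The cause of these shifts was not tested. Dim genes such as Fgfr1, Erbb2 and Efnb2, close to the filter, had wide intervals.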
